A study of Mus musculus with 12 samples.

Results

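The gene areas described here are the very long ones: rows of the deposited table whose end lies at least 300000 bases after their start, on autosomes. There were 475 of them among 37752 rows, and 24 further long rows on X or Y were left out. They spanned 300556 to 3171118 bases, with a median of 437645, and 46 were longer than 1 Mb. For each, the table gives a signal of DNA immunoprecipitation sequencing, which enriches DNA fragments that carry a given mark. The antibodies used recognised 5-methylcytosine (5mC) or 5-hydroxymethylcytosine (5hmC), and mouse naive T cells and Th1, Th2, iTreg and Th17 cells each gave 1 library with each antibody. Th17 cells also gave 1 control IgG library and 1 library of input DNA, so there were 12 libraries in all. The series names wild-type littermates and CD2(Cre)Tet2(f/f) mice, which carry floxed Tet2 and a CD2-driven Cre, on a mixed background, but the labels do not say which genotype, age or number of mice any library came from.

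Cytosines in mammalian DNA are methylated mainly where a C stands before a G, a CpG step. Tet enzymes oxidise 5mC to 5hmC, which is a step of active demethylation and is also found as a lasting mark in the bodies of transcribed genes, above all in neurons. Very long genes are a particular set in the genome: many encode synaptic adhesion molecules, receptors and ion channels that T cells do not use, while a smaller number encode kinases, guanine nucleotide exchange regulators and transcription factors with roles in T cells. The T cell and the neuronal genes of this length class were therefore set side by side, with broadly expressed genes as a further list.

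Of the 475 gene areas, 225 stood in a list written from textbook knowledge: 20 T cell, 142 neuronal, 46 broadly expressed, 15 muscle and connective tissue and 2 B cell genes. The T cell list holds genes with a known role in T cells, and several of them, such as Itpr1, Prkca, Tnik and Tcf4, also act in neurons and other cells. The other lists are no stricter: the broadly expressed list holds Hs3st4 and Agbl1, and the neuronal list Ryr2 and Kcnq1. No list was checked against expression data, so the list names are loose labels. The lists were also written with earlier results of these data known, so the contrasts between them are descriptions. No 2 of the 475 overlapped. Signal did not grow with length, so the values were read as averages over each area, which the labels do not state, and levels are compared between genes on that reading. The read number behind each library is not given in the sources used here, so no counting error can be given.

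Starts of 4 of these genes are shown because their gene areas gave some of the largest differences between naive and differentiated cells in either direction: Rere and Scfd2 had more 5hmC signal in naive cells, and Camta1 and Prkg1 less. Each line is the 250 bases before the outermost RefSeq start on assembly GRCm38.p6, 5′ to 3′ on the gene's strand, with the CpG steps in capitals.
Rere (chr4:150281666-150281915, plus strand): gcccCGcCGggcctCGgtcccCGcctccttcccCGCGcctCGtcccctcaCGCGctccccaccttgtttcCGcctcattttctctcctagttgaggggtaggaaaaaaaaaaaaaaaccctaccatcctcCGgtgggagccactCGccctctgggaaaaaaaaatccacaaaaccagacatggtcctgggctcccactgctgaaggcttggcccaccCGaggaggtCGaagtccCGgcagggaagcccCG
Scfd2 (chr5:74531743-74531992, minus strand): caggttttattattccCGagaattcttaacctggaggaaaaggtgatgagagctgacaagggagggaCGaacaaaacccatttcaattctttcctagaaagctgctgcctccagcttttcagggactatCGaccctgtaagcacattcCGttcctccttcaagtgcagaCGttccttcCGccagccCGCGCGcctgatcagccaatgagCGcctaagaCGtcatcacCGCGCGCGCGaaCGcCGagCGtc
Camta1 (chr4:151861769-151862018, minus strand): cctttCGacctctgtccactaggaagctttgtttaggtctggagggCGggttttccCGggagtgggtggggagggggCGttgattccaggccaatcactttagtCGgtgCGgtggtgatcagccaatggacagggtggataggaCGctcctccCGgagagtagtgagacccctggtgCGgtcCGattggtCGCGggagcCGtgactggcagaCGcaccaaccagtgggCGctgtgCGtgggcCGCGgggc
Prkg1 (chr19:31765034-31765283, minus strand): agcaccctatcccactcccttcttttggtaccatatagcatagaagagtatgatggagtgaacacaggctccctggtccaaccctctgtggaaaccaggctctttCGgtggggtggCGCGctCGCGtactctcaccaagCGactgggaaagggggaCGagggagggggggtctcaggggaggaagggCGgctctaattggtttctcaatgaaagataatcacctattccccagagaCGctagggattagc
These windows held 16, 19, 18 and 9 CpG steps. Of all 27025 promoters searched for the letters CG, which read the same on both strands, 91.7% held at least 1 and 38.2% at least 10, with a median of 6. RefSeq starts were matched by gene ID for 353 of the 475 gene areas, and these had a median of 15, with 64.3% holding at least 10. The medians were 21.5 for 16 T cell genes, 20 for 34 broadly expressed genes and 13.5 for 106 neuronal genes. The deposited values are 1 per gene area and do not resolve the signal at the start.

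Against all gene areas, the very long ones carried a little less 5hmC in naive cells and about as much afterwards. Against areas of 10 to 100 kb and of 100 to 300 kb they carried less in each library. Throughout, the value of naive cells comes first and those of the differentiated libraries follow in the order Th1, Th2, labelled iTreg, labelled Th17. Their median 5hmC signal was 9.9 in the naive library, then 10.6, 11.0, 11.1 and 11.2. Over all 37544 gene areas, 1 per name, the medians went the other way, from 12.0 in naive cells to 10.9, 11.0, 11.0 and 9.9. For autosomal areas of 10 to 100 kb they were 17.8, then 14.6, 15.0, 14.7 and 13.1. For those of 100 to 300 kb they were 15.2, then 13.9, 14.2, 14.1 and 12.9. Areas under 10 kb had 8.9 in naive cells and 7.6 to 8.6 afterwards. The labels of the 5hmC libraries called iTreg and Th17 are in doubt: Il17a, a cytokine of Th17 cells, had 31.3 in the former and 8.8 in the latter, so both are named here as labelled. Every very long gene area had signal in every 5hmC library, from 3.2 to 167.6. In the library labelled Th17, 472 of the 475 lay at least 2-fold above the IgG control, with a median ratio of 11.7. The median input signal was 1.5, against 1.7 over all gene areas.

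The median difference from naive cells varied between length classes. As the log2 difference, taken after adding 0.2 to each value and averaged over the 4 differentiated libraries, the median was -0.15 for autosomal areas under 10 kb and -0.27 for those of 10 to 100 kb. It was -0.06 at 100 to 300 kb, 0.12 at 300 to 500 kb, 0.16 at 500 kb to 1 Mb and 0.24 over 1 Mb. Above 0 lay 41.3%, 32.9% and 45.2% of areas in the 3 shorter classes, and 62.8%, 71.4% and 80.4% in the 3 longer ones. Each of the 4 libraries had a positive median in each class over 300 kb and a negative one in each class under it. The place of 0 rests on the scaling of the libraries: after median-ratio scaling, the 6 medians were 0.00, -0.08, 0.13, 0.32, 0.36 and 0.44, in the same order of classes. The 4 differences share the 1 naive library, so they are not independent of each other. With 1 library per cell type and antibody they have no replicate check and no test.

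**Figure D1:**
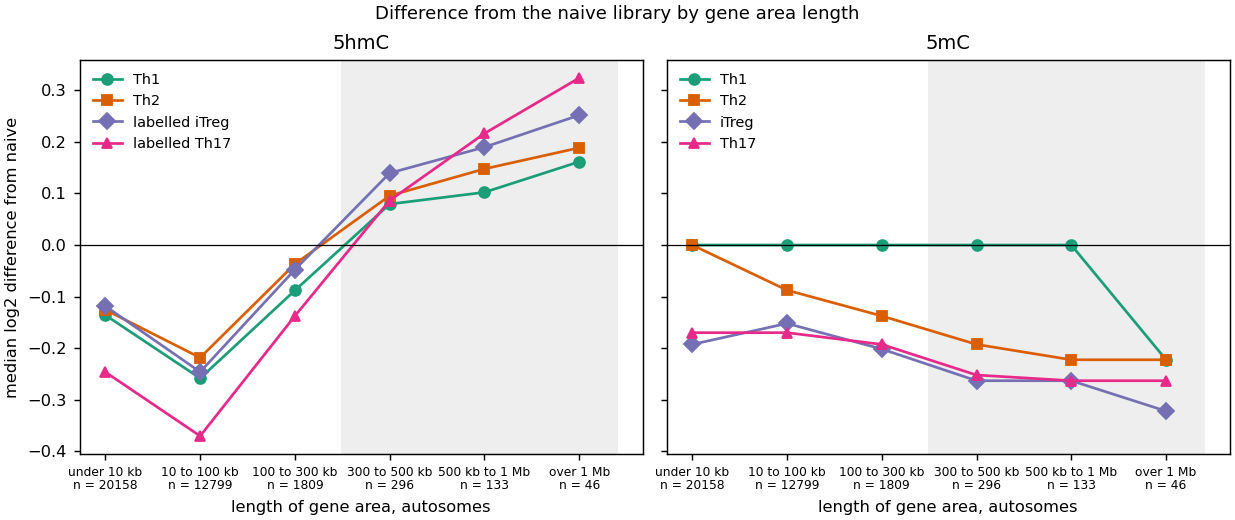
Median log2 difference of each differentiated library from the naive library, for 5hmC (left) and 5mC (right), in 6 classes of gene area length; each line is 1 library and the grey area marks the very long classes. As deposited, all 4 5hmC lines cross 0 between the class of 100 to 300 kb and that of 300 to 500 kb, while for 5mC no median lies above 0.

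In the 3 length classes compared by naive signal, the median difference was lower where naive signal was higher. Among areas with a naive 5hmC signal of 5 to 10, the median difference was 0.23 for 220 very long areas, 0.23 for 462 areas of 100 to 300 kb and 0.15 for 2003 areas of 10 to 100 kb. For naive signals of 10 to 20 the medians were 0.09, -0.06 and -0.18, over 160, 672 and 4204 areas. For 20 to 40 they were -0.37, -0.43 and -0.55, over 67, 460 and 3775 areas. The naive value stands on both sides of this grouping, which by itself ties a high naive signal to a low difference. Among the very long areas, Spearman's rank correlation of length with the 5hmC difference was 0.120 (n = 475), and -0.031 within the 142 neuronal ones, as a description.

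Few very long gene areas reached a 2-fold difference. The median SD of log2 5hmC over the 5 cell types was 0.24 for very long areas, 0.27 for areas of 100 to 300 kb, 0.33 for those of 10 to 100 kb and 0.55 for those under 10 kb. Of the 475, 442 passed a filter on low values, a mean of at least 3.31 over the 10 libraries with 5mC or 5hmC antibody. In Th1, 4 of these were at least 2-fold higher than naive (background over all 28158 gene areas that passed: 4.34%) and 4 lower (16.1%). In Th2 the counts were 6 higher (background 4.85%) and 5 lower (14.8%). The library labelled iTreg had 7 higher (4.52%) and 7 lower (14.7%), and that labelled Th17 had 7 higher (4.63%) and 14 lower (25.6%). In percent, the members called lower were 0.905, 1.13, 1.58 and 3.17 in these 4 libraries, against 6.26, 5.45, 4.64 and 13.9 among areas of 100 to 300 kb. Those called higher were 0.905, 1.36, 1.58 and 1.58, against 0.406, 1.45, 1.22 and 1.1. After median-ratio scaling 14, 11, 18 and 37 very long areas were higher and 0, 4, 3 and 3 lower, so the balance of the 2 directions rests on the scaling. The shares over all gene areas were not computed under that scaling, so the rescaled counts have no background.

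Genes of T cells and genes of neurons stood apart in level and in direction. The median 5hmC signal of the 20 T cell genes was 22.0 in naive cells, then 16.2, 16.15, 16.8 and 15.1. That of the 142 neuronal genes was 8.0 in naive cells, then 9.1, 9.45, 9.85 and 10.7. Their ratio, which no scaling of a library can alter, was 2.75 in naive cells and 1.78, 1.71, 1.71 and 1.41 in the other 4. For broadly expressed against neuronal genes the ratio was 1.81 in naive cells and 1.51, 1.51, 1.31 and 1.22. In the controls the T cell to neuronal ratio was 1.45 with IgG and 1.14 in input, both from Th17 cells, and the part of such differences between gene lists in the 5hmC values was not tested.

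**Figure D2:**
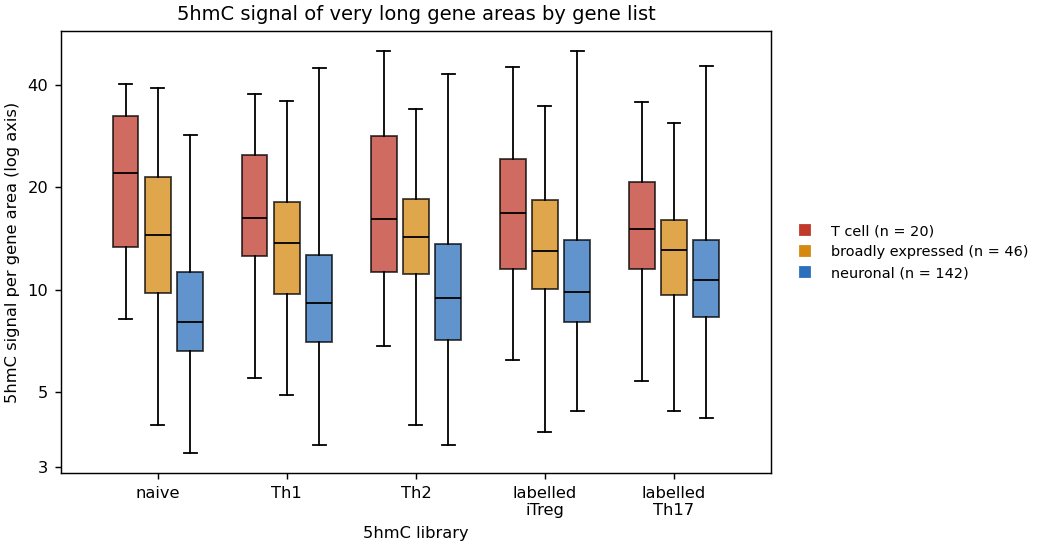
5hmC signal (log axis) of very long T cell, broadly expressed and neuronal gene areas in each of the 5 5hmC libraries; boxes span the quartiles, lines mark medians and whiskers reach the lowest and highest gene. The T cell median lies above the neuronal median in each library, most in the naive one (22.0 against 8.0).

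Naive cells held the highest 5hmC value of 10 and the lowest of 1 of the 20 T cell genes, but the highest of 11 and the lowest of 72 of the 142 neuronal genes. Among all gene areas, naive cells held the highest value in 37.6% and the lowest in 18.8%. They held the highest in 48.6% of areas of 10 to 100 kb and 38.0% of those of 100 to 300 kb. Of the 46 broadly expressed genes they held the highest value of 19, and of all very long areas the lowest in 39.4%. The mean difference from naive lay below 0 in 15 of 20 T cell genes, with a median of -0.39, and above 0 in 117 of 142 neuronal genes, with a median of 0.22. Below 0 lay 59.1% of all gene areas and 66.3% of those of 10 to 100 kb, and above 0 lay 39.3% of all and 66.9% of very long areas. After median-ratio scaling the T cell and neuronal medians were -0.19, with 13 of 20 below 0, and 0.42, with 129 of 142 above. Under that scaling 48.9% of all gene areas lay below 0, and 49.4% of all and 79.4% of very long areas above. The 46 broadly expressed genes had a median of -0.17, which became 0.03 under that scaling. The 15 muscle and connective tissue genes had one of 0.18, with 10 above 0, and under that scaling 0.37, with 14 above 0. Over all 475 very long areas the median was 0.15, and over all 37544 gene areas -0.17. Without the libraries of doubtful label, from Th1 and Th2 alone, the T cell and neuronal medians were -0.29 and 0.15. Within 1 class of naive signal, 20 to 40, the 11 T cell genes had a median of -0.47 with 2 above 0, and the 11 neuronal genes one of 0.21 with 8 above 0. In the same class the T cell median lay between those of areas of 100 to 300 kb (-0.43) and of 10 to 100 kb (-0.55).

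**Figure D3:**
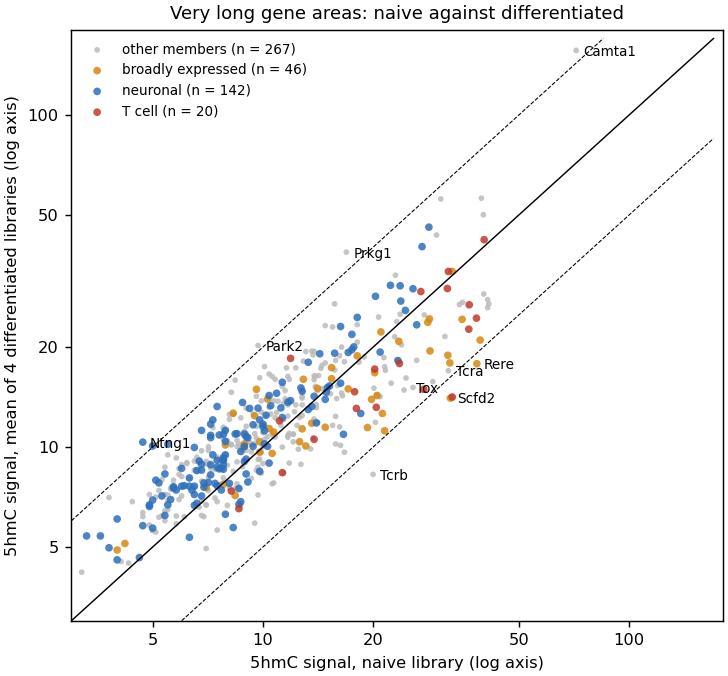
5hmC signal of each very long gene area in the naive library (x, log axis) against the mean of the 4 differentiated libraries (y, log axis), coloured by gene list; the solid line marks equality and the dashed lines 2-fold differences. Neuronal genes lie mostly above the solid line (117 of 142 by mean log2 difference) and T cell genes mostly below it (15 of 20). For comparison, 66.9% of very long areas lie above 0 by that difference, and 59.1% of all gene areas below.

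Among T cell genes of signalling and adhesion, 9 of 13 had a mean difference below 0, and 8 of 13 after median-ratio scaling. Of all gene areas 59.1% did as deposited and 48.9% after that scaling. Arhgap15, a GTPase-activating protein of blood cells (mm9 chromosome 2, 43604343 to 44243142), had 36.5 in naive cells, then 24.1, 27.1, 18.1 and 21.3. Camk1d, a calcium and calmodulin-dependent kinase (chromosome 2, 5214502 to 5635709), had 38.3 and then 22.2, 24.3, 27.5 and 23.8. In both, the naive value lay above all 4 others. Tnik, a kinase of the Wnt and JNK pathways, had 27.5 and then 14.9, 14.1, 18.9 and 11.8. Itpr2, an intracellular calcium release channel, had 36.6 against 26.9, 31.5, 29.2 and 19.7, and Pde4d, which breaks down cyclic AMP, had 20.4 against 14.9, 13.7, 13.6 and 10.5. Inpp4b, a phosphoinositide phosphatase, had 18 against 12.1, 12.0, 15.5 and 12.7, while Plcl1, with 11.1, was not above the 11.0 to 12.8 of the others.

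Several other signalling genes had a naive value inside the range of the other libraries. Elmo1, which acts with Dock proteins in cell migration (chromosome 13, 20277293 to 20698393), had 31.9 in naive cells, 33.8 in Th1 and 35.8 in Th2, then 24.9 and 25.6. Prkca, protein kinase C alpha, had 40.2 in naive cells and 37.5, 50.2, 45.2 and 35.6 in the others, so naive lay inside the range. Itpr1, a second calcium release channel, had 32.1 and then 35, 44.1, 35.5 and 20.6, but its IgG signal of 4.4 was among the highest of the very long areas. Vav3, a guanine nucleotide exchange factor, ran from 11.4 in the library labelled iTreg to 25.4 in Th2, with 23.6 in naive cells. Lrba, which keeps Ctla4 from degradation, had 11.3, then 5.5, 11.1, 11.5 and 5.4, so that Th1 and the Th17-labelled library stood apart from the rest. Rabgap1l was the 1 T cell gene at least 2-fold higher than naive in any library, with 11.9 in naive cells, 24.7 in Th2 and 13.6 to 18.5 in the others. At least 2-fold lower in some library were 5 of the 20 T cell genes. The backgrounds over all areas that passed the filter were 11% higher and 33.2% lower. Of all 475 very long areas, without the filter, 16 were higher and 18 lower in some library.

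Of the 7 T cell genes for transcription and RNA, 6 lay below 0, and 5 after median-ratio scaling, against 59.1% and 48.9% of all gene areas. Tox, a nuclear factor needed for CD4 lineage development in the thymus (chromosome 4, 6614532 to 6917869), had 32.9 in naive cells, then 15.0, 11.3, 14.1 and 16.2. None of these 4 came near the naive value, the mean log2 difference was -1.22, and its 5mC signal was 0.3 to 0.5 in every cell type. Rora, a nuclear receptor of Th17 cells, had 20.2 and then 17.7, 18.2, 18.8 and 14.0, with the naive value above all others by a small margin. Maml3, a Notch coactivator, had 27.0, within the 23.9 to 36.1 of the other libraries. Celf2, an RNA-binding splicing regulator, was low throughout, at 8.2 in naive cells and 6.5 to 8.4 elsewhere with an IgG signal of 2.5, and so was Zbtb20, at 8.6 and 5.6 to 7.5. Tcf4, an E protein, had 13.8 against 9.9 to 11.3, and Jazf1 17.8 against 12.8 to 19.6.

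The areas of rearranging antigen receptor loci are also in the set. Tcrb, the whole T cell receptor beta locus (chromosome 6, 40841294 to 41508369), had the lowest mean difference of any very long area that passed the filter, at -1.27. Its signal was 20 in naive cells, then 9.4, 9.6, 7.8 and 6.3, all under the naive value. Tcra, the alpha locus (chromosome 14, 53047641 to 54843872), chosen after its values were seen, had 32.1 and then 16.7, 16.0, 18.3 and 16.9. The immunoglobulin loci, which rearrange in B cells, were not lower on average. Igh had 6.2 in naive cells and 7.5 to 10.1 afterwards, and Igk, the longest area of all, had 8.3 against 6.8 to 9.8. Of B lineage genes, Ebf1 had 10.4 in naive cells against 10.7 to 15.0, and Aff3 had 35.1 against 21.6 to 34.5.

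**Figure D4:**
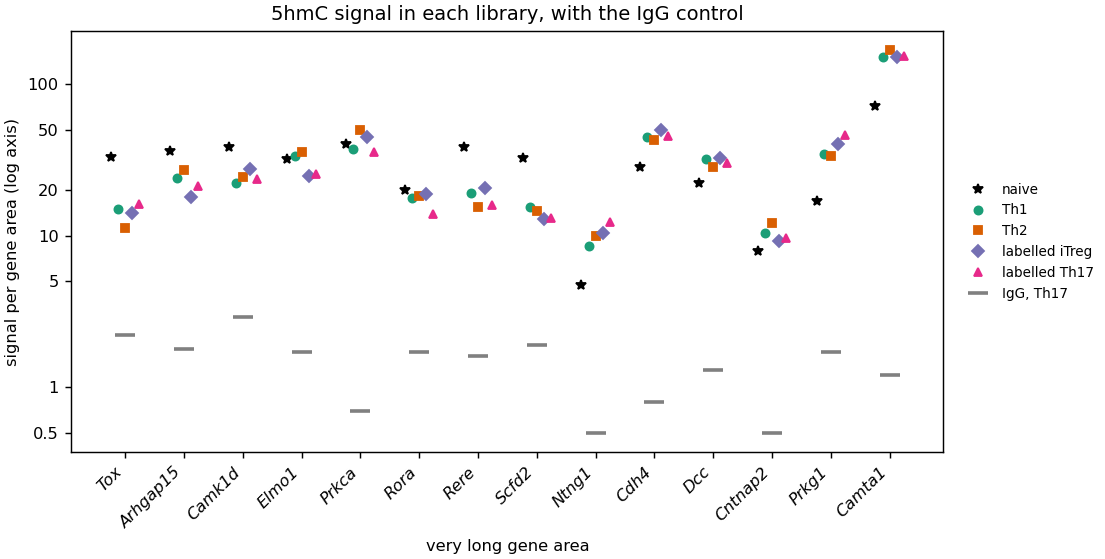
5hmC signal (log axis) in each of the 5 libraries for 14 very long gene areas, 1 symbol per library, with the IgG signal of Th17 cells as a grey bar. In Tox, Arhgap15, Camk1d, Rere and Scfd2 the naive star lies above the other 4 symbols, and in Ntng1, Cdh4, Dcc, Cntnap2, Prkg1 and Camta1 below them.

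In the neuronal list all 5 groups by role had a median above 0. The median difference from naive was 0.29 for 31 axon guidance and neurotrophic signalling genes, 0.26 for 23 synaptic scaffold, release and RNA-binding genes and 0.23 for 46 synaptic adhesion genes. It was 0.21 for 25 ion channel genes and 0.20 for 17 neurotransmitter receptor genes. Above 0 lay 39.3% of all gene areas, 66.9% of all very long areas and 66% of those in no list. For these neuronal groups the counts above 0 were 26 of 31, 20 of 23, 40 of 46, 18 of 25 and 13 of 17. None of these medians, nor those of the T cell roles, changed sign under median-ratio scaling. Of the 131 neuronal genes that passed the filter, 6 were at least 2-fold above naive in some library (background 11% of all areas that passed). These were Epha5, Magi1, Ntng1, Reln, Ryr3 and Sntg1. At least 2-fold below were 0 (background 33.2%).

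Ntng1, a membrane-bound netrin of axons (chromosome 3, 109582967 to 109946389), differed most. It had 4.7 in naive cells, then 8.6, 10.0, 10.4 and 12.4, all well above naive. Sntg1 (5.0 in naive, 9.3 to 11.4 elsewhere) and Reln, a guidance protein of migrating neurons (5.5 in naive, 9.0 to 12.0 elsewhere), chosen after their values were seen, were of the same kind. Several neuronal genes of high signal were higher after differentiation as well, though Gabbr2, a GABA receptor subunit, had 26.3 in naive cells and 21.2 to 25.1 elsewhere. Cdh4, a cadherin of the retina and brain (chromosome 2, 179177182 to 179634079), had 28.4 in naive cells and 44.8, 43.2, 50.2 and 45.6 in the others, and its input signal of 2.7 was high. Dcc, the netrin receptor, had 22.3 and then 31.9, 28.3, 32.4 and 30.2. Myt1l, a transcription factor of neurons, had 27.2 and then 34.3, 35.4, 49.5 and 41.4, and Cntnap4 had 20.3 and then 26.4, 29.2, 27.9 and 30.3.

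Well-known long genes of the synapse mostly had low 5hmC in every library. Of 12 such genes, 9 had a mean difference above 0, against 66.9% of all very long areas and 39.3% of all gene areas. Cntnap2, the longest neuronal area at 2241327 bases (chromosome 6, 45010059 to 47251386), had 7.9 in naive cells and 10.5, 12.2, 9.3 and 9.6 in the others. Nrxn3, a presynaptic neurexin, had 5.8 and then 6.3, 8.0, 8.1 and 7.3. Csmd1, Dlg2, Ctnna2, Ptprd and Lsamp had naive values of 7.8, 5.4, 5.6, 6.6 and 6.5 and mean differences of 0.17, 0.19, 0.27, 0.03 and 0.02. Rbfox1 (14.9 in naive, 11.4 to 17.0 elsewhere) and Grm5, a metabotropic glutamate receptor (14.0 in naive, 7.8 to 13.9 elsewhere), had more signal but mean differences of -0.05, above 0 under median-ratio scaling, and -0.27. Kcnd2, a potassium channel, ran from 3.5 to 5.9.

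Some neuronal genes were too low in all libraries to pass the filter. Erbb4 and Nrg3, a receptor and its ligand, had 3.6 and 3.3 in naive cells, against 5.2 to 5.7 and 4.2 to 5.9. Cdh8 and Cntn6 among adhesion genes had 4.0 and 4.7 in naive cells. Cacnb2, a calcium channel subunit that passed the filter, was among the 11 neuronal genes whose naive value lay above the rest, with 16.6 in naive cells and 9.8 to 11.9 elsewhere.

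**Figure D5:**
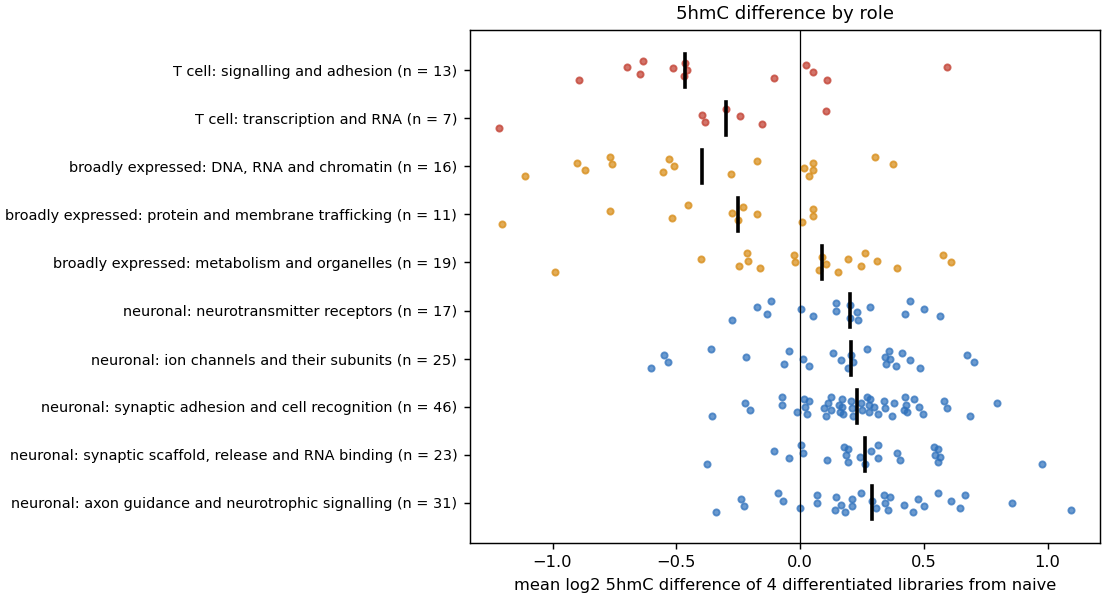
Mean log2 difference in 5hmC of the 4 differentiated libraries from naive (x) for each very long gene area of 10 role groups (y); points are genes and vertical bars medians. The 5 neuronal groups have medians of 0.20 to 0.29, and both T cell groups have medians below 0 (-0.46 and -0.30).

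Among broadly expressed genes the medians ranged by role, with signs that median-ratio scaling did not change. Those for DNA, RNA and chromatin had a median of -0.39, with 10 of 16 below 0. Those of membrane trafficking had one of -0.25, with 8 of 11 below 0. Metabolic and organelle genes had 0.09, with 11 of 19 above 0. For comparison, 59.1% of all gene areas and 33.1% of very long areas lay below 0. Among autosomal areas of 10 to 100 kb, 66.3% did. The shares above 0 were 39.3%, 66.9% and 32.9%, in this order. Rere, a nuclear receptor corepressor (chromosome 4, 149656024 to 149996074), had 38.4 in naive cells, then 19.2, 15.4, 20.8 and 15.9. Scfd2, of the family that controls vesicle fusion (chromosome 5, 74600840 to 74927773), had 32.5 and then 15.6, 14.5, 12.9 and 13.2. In both, all differentiated values lay far below naive. Wwox, a tumour suppressor at a fragile site, had 35 against 22.4 to 25.9, whereas Atxn1 was level, with 32.9 against 30.8 to 35.9. Macrod2 and Naaladl2 were among the lowest of all, at 4.2 and 4.0 in naive cells.

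Camta1, a calmodulin-binding transcription factor strong in brain (chromosome 4, 150433632 to 151235865), stood above every other very long area. It had 71.7 in naive cells and 152.3, 167.6, 152.0 and 154.4 in the others, so the 4 differentiated libraries were close to each other and at least 2-fold above naive. Its IgG signal was 1.2, but its input signal of 2.8 and its mean 5mC of 2.08 also ranked 1 among the 475. The 1 shorter gene area of at least 1000 bases nested within it had a mean 5hmC of 7.38, against 139.6 for the whole. Prkg1, a cyclic GMP-dependent kinase of smooth muscle (chromosome 19, 30642040 to 31839522), had 16.9 in naive cells and 34.5, 33.6, 40.2 and 46.3, and a median of 7.24 over 2 nested areas against 34.3 for the whole. If the values are averages, the nested areas of both genes lay below the rest of the gene. Nested areas were often lower: their median lay above the value of the whole in 64 of 227 very long areas. Park2, which encodes the ubiquitin ligase parkin (chromosome 17, 11033249 to 12256226), had 9.7 and then 18, 16.6, 26.4 and 19.9. Next to Camta1 in level were Zmat4 (39.5 in naive, 47.4 to 69.6 elsewhere), the predicted gene Gm9478 and Dner, a Notch ligand of neurons (40 in naive, 42.0 to 60.5 elsewhere). At the lower end, Galnt13, Agmo and Sgcz had 3.2, 4.1 and 4.3 in naive cells.

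The genes behind the 2-fold counts overlapped between libraries, which share the naive one. In Th1 the 4 higher were Camta1, Epha5, Ltbp1 and Prkg1, and the 4 lower Lrba, Scfd2, Tcrb and Tox. In Th2 the 5 lower were 2610307P16Rik, Rere, Scfd2, Tcrb and Tox. Camta1 was called higher and Scfd2, Tcrb and Tox lower in each of the 4 libraries. After median-ratio scaling 0 areas were lower in Th1, so the Th1 calls of Scfd2, Tcrb and Tox were lost.

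With the 5mC antibody the very long areas had low signal with small differences. Their median was 0.6 in naive cells and 0.5 in each other library, against 0.7 in naive cells over all gene areas. Values are rounded to 1 decimal, so these medians lie a few steps above 0, and single values ran from 0.1 to 2.3. The median of the mean over 5 libraries was lower in longer classes, with 0.58 at 300 to 500 kb, 0.46 at 500 kb to 1 Mb and 0.34 over 1 Mb. Very long areas rich in 5mC tended to be rich in input DNA too: across the 475, Spearman's rank correlation of mean 5mC was 0.723 with input and 0.721 with mean 5hmC, as a description over areas measured in the same libraries. Mean 5hmC also went with input, at 0.632 across the 475 and 0.587 within the 142 neuronal areas. The part of input in the 5hmC levels compared between genes was not tested.

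The 5mC signal was lower than naive in most very long areas. The mean difference lay below 0 in 403 of 475, with a median of -0.19, against 63.5% of all gene areas, with a median of -0.11. After median-ratio scaling 314 of 475 lay below 0, with a median of -0.07, against 49.6% of all gene areas. For the 142 neuronal genes the median was -0.24, with 130 below 0 and 60 below naive in every differentiated library. For the 20 T cell genes it was -0.12, with 15 below 0 and 0 below naive in every library. Below naive in every differentiated library were 22.4% of all gene areas, 32.6% of all very long areas and 39.1% of those over 1 Mb. With ties left out, Th1 cells held the highest 5mC of 11 of the 20 T cell genes and of 23.5% of all gene areas. Under median-ratio scaling of the 5mC libraries the T cell median was 0.01, so its sign rests on the scaling, while the neuronal median stayed below 0 at -0.13.

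Of the 442 areas that passed the filter, Cacnb2 alone reached a 2-fold difference in 5mC, in iTreg cells, with 0.8 in naive cells, then 0.6, 0.4, 0.3 and 0.4. The background in iTreg was 4.63% lower and 1.33% higher. No very long area was called in Th1 (background 2.22% higher and 2.23% lower), Th2 (1.56% and 3.12%) or Th17 (1.5% and 3.99%). Among areas of 100 to 300 kb the shares were also low, at most 0.058% in each library and direction. Among those with other than predicted names, Nell1, Pcdh9 and L3mbtl4 had the next lowest mean differences, -0.69, -0.65 and -0.66, and Bre, Pcdh7, Itpr2 and Dscam the highest, from 0.31 to 0.40. At Bre the 5mC signal was 0.4 in naive cells and 0.8, 0.5, 0.5 and 0.6 in the others. The highest 5mC after Camta1 stood at Prkg1, Cdh23 and Wwox, with means of 1.76, 1.52 and 1.36.

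The contrast of 5hmC with 5mC libraries is the one with several libraries on each side, 5 against 5, paired by cell type. It asks which areas had more 5hmC than 5mC signal relative to the median area of each library. With calls at a 2-fold difference or more and an adjusted p under 0.05, limma found 19 of the 442 very long areas higher (background 10.1%) and 2 lower (background 7.62%). Because 5hmC values are much larger than 5mC values, the filter on low values acts mostly on 5hmC, and these backgrounds depend on it. Without the filter, 3606 of all 37544 gene areas were higher and 6035 lower, with 30 and 1 of the 475 very long ones. Replicate error here means the spread among cell types. The labels of the 5hmC libraries called iTreg and Th17 are in doubt, so the pairs of these cell types may be crossed. Without the pairing 19 were higher and 2 lower as well. Of T cell genes 4 of 20 were higher and 0 lower, with a median log2 difference of 0.67, of the 131 neuronal genes that passed 6 were higher and 1 lower, with a median of 0.15, and of 44 broadly expressed genes 3 higher and 0 lower, with 0.30. The median over all 28158 gene areas was 0.08.

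Camta1 led, with a log2 difference of 2.03 (SE 0.23, limma adjusted p = 0.00047). The T cell genes called were Itpr1 (1.32, SE 0.18), Elmo1 (1.20, SE 0.15), Prkca (1.11, SE 0.17) and Inpp4b (1.09, SE 0.18). Tcra stood at 1.44 (SE 0.17, limma adjusted p = 0.00052), with 5mC of 0.2 to 0.4 beside 5hmC of 16.0 to 32.1. Neuronal genes called higher included Chrm3, a muscarinic acetylcholine receptor (1.40, SE 0.17, with an IgG signal of 3.4), Cntnap4 (1.36, SE 0.16), Myt1l (1.34, SE 0.21), Cdh4 (1.32, SE 0.20) and Dcc (1.29, SE 0.18). Among the areas called lower was Odz3, a teneurin of neuronal wiring, at -1.06 (SE 0.19), whose 5mC of 0.8 to 1.5 was high for its 5hmC of 7.8 to 9.8. The other was 2210408I21Rik, and with a pseudocount of 1 neither was called. That setting also gave 13 areas called higher in place of 19, and which of those named here were kept is not given.

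Around the length threshold, Jazf1 (300556 bases), Cntn3 (301361) and Ranbp17 (301952) lay just inside, with naive 5hmC of 17.8, 7.8 and 6.8. Pde1c (299830), Akap13 (299075) and Nxph1 (298559) lay just outside, with 6.8, 36.2 and 5.9.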

How the data were processed

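The authors deposited 1 table of signal for gene areas in 12 libraries, never negative and rounded to 1 decimal. CASAVA 1.7.0 and build mm9 are named, per the submitters' processing notes. How reads were aligned, counted and scaled, and how many there were, is not given in the sources used here. Columns were matched by the sample number in the titles, and coordinates are as the file gives them. A repeated name kept its long row, otherwise the row of highest mean signal (5mC and 5hmC libraries). A few members are counted but not reported by name here. Members and gene lists were chosen with earlier results of these data known.

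Differences are log2 values after adding 0.2, the 5th percentile of non-zero values. Calls used a 2-fold rule, without a test, among areas with a mean of at least 3.31, the 25th percentile. The contrast of antibodies used limma 3.58.1 in R 4.3.3 (trend, libraries centred on their medians, cell type as block because both antibodies were used on the same labelled cell type, Benjamini-Hochberg adjustment over 28158 areas), tested on simulated data. Python 3.11.15 with numpy 2.4.6, pandas 2.3.3, scipy 1.17.1 and matplotlib 3.10.9 did the rest. Named genes are the T cell members, the highest and lowest 2 by 5hmC of each role, the 4 extremes of each difference, level and length, 12 textbook neuronal genes, and 3 on each side of the length threshold. Others, such as Tcra, Sntg1, Reln and genes named from the counts of calls, were chosen after their values were seen. Alternatives changed length, pseudocount, scaling, filter, repeated names, IgG limit and, for limma, centring, trend, block and cell types.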

Additional observations from a re-analysis of the deposited data

Results flagged for a closer look

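In 16 very long gene areas the control IgG library of Th17 cells had at least 2 times the signal of input DNA, which is 3.37% of the 475 against 8.63% of all gene areas. Among the highest were Fto, an RNA demethylase, with an IgG signal of 5.0, Zmat4 with 4.5 and Itpr1 with 4.4. Rad51l1 and Wbscr17 had 3.9 each, Ube2e2 had 3.7, and Chrm3, Ralyl, Ctnna2 and Kcnb2 had 3.4 each. Kcnh8, Kcnh7, Zfpm2, Fam190a and Fgf14 had 2.8, 2.7, 2.2, 2.1 and 2.0. Of these 16, 7 are neuronal genes, which make up 142 of the 475. In the 5hmC library labelled Th17, Ralyl and Fto had 1.65 and 1.86 times their IgG signal. At Zmat4 and Chrm3 the ratios were 11.2 and 9.59.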

How the results depend on the processing

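Median-ratio scaling moved the 5hmC values most, raising the differentiated libraries by 0.15 to 0.30 in log2 against naive. The T cell and neuronal 5hmC medians became -0.19 and 0.42, both with the sign they had, and the neuronal 5mC median -0.13, while the T cell 5mC median reversed to 0.01 (0.0084). The broadly expressed 5hmC median turned from -0.17 to 0.03. Above 0 lay 79.4% of very long areas in place of 66.9%, and 49.4% of all gene areas in place of 39.3%. The 2-fold counts under this and the other settings were made without a background over all gene areas. Under this scaling they were 14, 11, 18 and 37 higher in Th1, Th2, iTreg-labelled and Th17-labelled libraries. Lower were 0, 3 and 3 in Th1, iTreg-labelled and Th17-labelled. Of 91 named areas, 5 changed the sign of their 5hmC difference (Celf2, Elmo1, Gabbr2, Rbfox1 and Zfpm2) and 23 that of 5mC. With a pseudocount of 1 the counts were 2 and 3 higher in Th1 and Th2 and 4 and 9 lower in iTreg-labelled and Th17-labelled libraries, and the neuronal 5mC median was -0.11. At a length of at least 500000 bases, fewer areas by construction, they were 2, 4 and 4 higher in Th1, iTreg-labelled and Th17-labelled and 2, 1, 2 and 4 lower in Th1, Th2, iTreg-labelled and Th17-labelled. The 5mC call in iTreg was 0 under each of these 3 settings. For limma, the counts higher and lower were 6 and 0 of 163 areas at 500000 bases. Without centring they were 442 and 0 of 442, beside 28088 and 3 of all 28158 gene areas. Without the filter they were 30 and 1 of 475, beside 3606 and 6035 of all 37544. A pseudocount of 1 gave 13 higher and 0 lower of 442, beside 2385 and 1513 of all 28158. Leaving out each cell type gave 18 to 26 higher and 1 to 2 lower. Without the replicate block, that is without pairing by cell type, 19 were higher and 2 lower, as with it. Why these values moved, beyond the number of areas and the shift between libraries, the cause was not tested. Unknown depth and rounding to 1 decimal limit all 5mC values.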
